A study of Mus musculus with 8 samples.

Results

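The 34 genes described here were 22 genes of glucose uptake, glycolysis and lactate formation and 12 genes of the response to low oxygen, taken by their symbols from the 55401 genes of a count table of hepatic macrophages. The table had 35 rows with these symbols, since *Aldoa* named 2 identifiers, and the second *Aldoa* row was listed at 0 to 0.283 CPM (a gene's count per 1000000 counts of its library) and was not tested. RNA was measured by poly(A) RNA sequencing in 8 libraries, 2 for each of 4 groups. The macrophages labelled normal came from wild-type C57BL/6J mice kept on a standard diet, and those labelled steatotic from MC4R-KO mice on the C57BL/6J background that had a Western diet for between 6 and 10 weeks. All were captured by their F4/80 surface antigen with magnetic beads, plated on collagen and exposed for 24 h either to vehicle (Veh) or to cholesterol crystals (CC, 500 μg/ml). Genotype and diet changed together between the labels and cannot be told apart. The knockout was not limited to macrophages, and the sources used here give a starting age only for a longer feeding experiment and do not give the composition of the vehicle or whether the 2 libraries of a group came from separate mice. P-values therefore measure the spread between these libraries, which may be technical.

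Glycolysis splits glucose into pyruvate in the cytosol. GLUT1, encoded by *Slc2a1*, carries glucose into the cell, hexokinases trap it, phosphofructokinase commits it to the pathway, and lactate dehydrogenase and the exporter MCT4 (*Slc16a3*) dispose of the product as lactate. The transcription factor HIF-1, whose oxygen-regulated subunit is encoded by *Hif1a*, is marked for destruction by prolyl hydroxylases (*Egln1*, *Egln3*) while oxygen is present. Without oxygen it binds short ACGTG or GCGTG motifs and activates many genes of glucose uptake and glycolysis together with *Vegfa*, *Ndrg1* and *Hilpda*. In macrophages HIF-1 is also known to be active at normal oxygen after inflammatory stimuli.

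Total counts ranged from 58668655 to 74529462 per library, so that 3 counts stood for 0.0403 to 0.0511 CPM, which limits the precision of *Ankrd37*, *Egln3* and the second *Aldoa* row (counting error only). The knocked-out gene, *Mc4r*, was at 0 counts in the 4 libraries labelled normal and at 22 to 72 counts in those labelled steatotic. That is the opposite of what the label knockout would give for an allele without RNA. Whether the knockout allele is still transcribed is not given in the sources used here. Each direction between livers is therefore one between libraries labelled so. All 9 macrophage markers were tested, and their summed level was 16313 to 16787 CPM in normal Veh, 13446 to 13695 in normal CC, 12339 to 12787 in steatotic Veh and 10776 to 11804 in steatotic CC. The sums did not overlap, but single markers moved both ways. Between the labels at Veh 5 of the 9 were higher with the label steatotic (*Adgre1*, which encodes F4/80, 1062 and 1087 against 1739 and 1730 CPM) and 3 lower (*Lyz2*, the largest part of the sum, 8228 and 7908 against 3429 and 3591 CPM). With CC 1 marker was higher and 5 lower with the label normal and 2 higher and 4 lower with the label steatotic. The shares of all tested genes higher and lower, to which each marker count here compares, were 6.27% and 5.54% with CC with the label normal, 12.0% and 10.9% with CC with the label steatotic, and 16.4% and 14.3% between the labels at Veh. The 5 Kupffer cell markers summed to 2742 to 2785, 2147 to 2362, 3893 to 3971 and 2548 to 3052 CPM in the same order, most of it *Cd5l*. At Veh 3 of them were higher with the label steatotic and 2 lower, *Marco* (357 and 375 against 95.2 and 90.5 CPM) and *Clec4f* (134 and 136 against 88.2 and 96.2 CPM). With CC 3 of these 5 were lower with the label normal, and 4 lower and 1 higher with the label steatotic, among them *Vsig4*, which went from 335 and 302 CPM to 62.8 and 66.7, and from 570 and 605 CPM to 82.1 and 89.5. Markers of other cells moved with the labels: 5 of 8 tested hepatocyte genes were lower and 1, *Ass1*, higher with the label steatotic at Veh (*Alb* 41.0 to 49.4 CPM against 1.24 to 2.31 over both treatments). In the other direction, 7 of 8 T or NK cell genes were higher (sum at most 2.59 against 24.5 to 32.1 CPM). The 6 stellate cell markers summed to 2.83 to 2.96 CPM in normal Veh, 5.88 to 7.51 in normal CC, 17.8 to 21.2 in steatotic Veh and 108 to 136 in steatotic CC. *Dcn*, the only 1 tested, was 2.14 and 2.07 CPM of it in normal Veh and nearly all of it in the other groups, while *Lrat* was at 0 in all steatotic libraries. The 6 neutrophil markers summed to 9.08 to 9.94, 14.4 to 15, 4.73 to 5.50 and 18.5 to 19.5 CPM in the same order, again nearly all 1 gene, *S100a8*, with *Ly6g* at 0 in every library. Of 6 tested sinusoidal endothelial markers, 4 were higher and 1 lower with the label steatotic at Veh (sum 146 to 151 against 247 to 251 CPM). With CC 2 of them were higher with the label normal (sum 177 to 182 CPM), and 4 higher and 1 lower with the label steatotic (sum 228 to 240 CPM). Among 5 cycling cell genes, 2 were higher with the label steatotic at Veh (sum 10.3 to 12.7 against 17.0 to 17.3 CPM over both treatments). So was 1 of 4 cholangiocyte genes. Erythroid genes summed to at most 0.528 CPM. Mitochondrially encoded RNA took 1.85% and 1.75% of counts in normal Veh, 1.75% and 1.67% in normal CC, 1.44% and 1.46% in steatotic Veh and 1.13% and 1.07% in steatotic CC. The part of these shifts in the results below was not tested. In such bulk RNA, fewer cells of a type and less RNA per cell cannot be told apart.

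Of the 34 genes, 33 passed the filter of 0.5 CPM in at least 1 library and were tested among 15202 genes, namely all 22 genes of glycolysis and 11 of the 12 of the oxygen response. *Ankrd37*, a hypoxia-induced ankyrin repeat protein, was not tested, with 0.0850 and 0.151 CPM in normal Veh, 0 in both normal CC libraries, 0.161 and 0.0544 CPM in steatotic Veh and 0.244 and 0.282 CPM in steatotic CC. *Egln3*, a HIF prolyl hydroxylase, passed only through 1 normal Veh library (0.513 CPM) and stayed between 0.142 and 0.488 CPM in the others. A gene was called where its adjusted p-value in edgeR's quasi-likelihood test was under 0.05.

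CC raised the glucose carrier, 2 enzymes of the lower part of glycolysis and 3 HIF targets with both liver labels. A hexokinase and the kinase that inhibits pyruvate dehydrogenase were lower at both. With the label normal, 6 of the 33 tested members were higher with CC and 3 lower, where 6.27% of all tested genes were higher and 5.54% lower. With the label steatotic, 13 members were higher and 5 lower, against 12.0% and 10.9% of all tested genes. The 6 members higher with CC at both labels were *Slc2a1*, *Pgk1*, *Pgam1*, *Vegfa*, *Ndrg1* and *Hilpda* (5.25% of all tested genes were higher at both), and the 2 lower at both were *Hk2* and *Pdk1* (4.39% of all tested genes). The 2 comparisons share no library. The lower count with the label normal was 0 without normal Veh replicate 1 or normal CC replicate 2 and 1 without either of the other libraries of that comparison, and that with the label steatotic was 3 without steatotic Veh replicate 2 or steatotic CC replicate 1. The median log2 fold change of the 33 members was 0.09 with the label normal and 0.15 with the label steatotic, beside medians of 0.00 for all tested genes in both.

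*Slc2a1* (ENSMUSG00000028645.11, chromosome 4 from 119108711 to 119137983, GRCm38) had 73.7 and 70.3 CPM in normal Veh, 140 and 132 CPM in normal CC, 55.4 and 52.1 CPM in steatotic Veh and 137 and 123 CPM in steatotic CC. The 2 CC groups overlapped each other and lay above all 4 Veh libraries. With CC it changed by a log2 fold of 0.95 ± 0.07 (SE; adjusted p = 0.000161) with the label normal and 1.29 ± 0.07 (adjusted p = 1.42e-05) with the label steatotic. Between the labels it was lower in steatotic by 0.38 ± 0.07 on the log2 scale at Veh (adjusted p = 0.00448), and with CC the difference was -0.04 ± 0.07 (adjusted p = 0.718).

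*Pgk1*, phosphoglycerate kinase, which makes ATP in the pathway (ENSMUSG00000062070.12, chromosome X from 106187100 to 106203699), had 309 and 313 CPM in normal Veh, 382 and 396 in normal CC, 211 and 227 in steatotic Veh and 301 and 286 in steatotic CC. Each CC group lay above the Veh group of its label, and the label steatotic lay below the label normal at either treatment. The log2 fold changes with CC were 0.36 ± 0.05 (adjusted p = 0.00287) and 0.44 ± 0.05 (adjusted p = 0.000494). *Pgam1*, the next enzyme of the pathway, phosphoglycerate mutase (ENSMUSG00000011752.7, chromosome 19 from 41911923 to 41918660), rose from 157 and 135 CPM to 179 and 182 CPM with the label normal (log2 0.34 ± 0.07, adjusted p = 0.0186) and from 120 and 122 CPM to 166 and 162 CPM with the label steatotic (0.46 ± 0.07, adjusted p = 0.00242). Without either normal CC library the *Pgam1* call with the label normal was lost (0.35, adjusted p = 0.0763, without replicate 1, and 0.33, adjusted p = 0.0870, without replicate 2).

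*Vegfa*, the growth factor of blood vessels (ENSMUSG00000023951.18, chromosome 17 from 46016993 to 46032369), had 2.29 and 2.02 CPM in normal Veh, 6.15 and 5.83 CPM in normal CC, 11.7 and 10.8 CPM in steatotic Veh and 35.0 and 39.4 CPM in steatotic CC. No 2 groups overlapped. The log2 fold changes with CC were 1.51 ± 0.11 (adjusted p = 0.000208) with the label normal and 1.74 ± 0.11 (adjusted p = 2.67e-05) with the label steatotic, and they differed by 0.24 ± 0.15 (adjusted p = 0.577). *Ndrg1*, a stress-responsive gene induced by HIF (ENSMUSG00000005125.13, chromosome 15 from 66929318 to 66969640), had 7.61 and 7.49 CPM in normal Veh, 13.7 and 12.9 in normal CC, 15.3 and 13.4 in steatotic Veh and 55.5 and 44.8 in steatotic CC. Its normal CC and steatotic Veh values overlapped, and both steatotic CC libraries lay above all others. The log2 fold changes with CC were 0.86 ± 0.12 (adjusted p = 0.00370) and 1.83 ± 0.12 (adjusted p = 3.92e-05).

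*Hilpda*, a protein of lipid droplets that inhibits adipose triglyceride lipase and is a HIF target (ENSMUSG00000043421.8, chromosome 6 from 29272488 to 29275446), had 98.1 and 102 CPM in normal Veh, 189 and 187 in normal CC, 54.5 and 55.2 in steatotic Veh and 191 and 185 in steatotic CC. At Veh the steatotic libraries lay below the normal ones, and with CC the labels overlapped. CC raised it by 0.94 ± 0.04 (adjusted p = 3.03e-05) with the label normal and by 1.79 ± 0.04 (adjusted p = 6.67e-07) with the label steatotic. The difference between the labels was -0.82 ± 0.04 at Veh (adjusted p = 7.55e-06) and 0.03 ± 0.04 with CC (adjusted p = 0.685).

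*Hk2*, an inducible hexokinase bound to mitochondria (ENSMUSG00000000628.10, chromosome 6 from 82725025 to 82774454), went the other way. It had 85.1 and 82.8 CPM in normal Veh, 66.3 and 64.1 in normal CC, 92.3 and 96.1 in steatotic Veh and 73.6 and 83.1 in steatotic CC, with log2 fold changes of -0.33 ± 0.06 (adjusted p = 0.0147) and -0.25 ± 0.06 (adjusted p = 0.0261) with CC. *Pdk1*, which phosphorylates and inhibits pyruvate dehydrogenase and is a textbook HIF-1 target (ENSMUSG00000006494.11, chromosome 2 from 71873224 to 71903858), had 10.6 and 10.4 CPM in normal Veh, 6.87 and 5.97 in normal CC, 10.4 and 10.0 in steatotic Veh and 5.86 and 6.16 in steatotic CC. The 4 CC libraries lay below the 4 Veh libraries, and with CC the labels overlapped. The log2 fold changes of *Pdk1* were -0.67 ± 0.11 (adjusted p = 0.00896) and -0.75 ± 0.11 (adjusted p = 0.00264). The *Hk2* call with the label normal was lost without any 1 of its 4 libraries (log2 -0.35 to -0.31, adjusted p = 0.0502 to 0.0860), and with the label steatotic without either steatotic Veh library or steatotic CC replicate 1 (-0.28, -0.22 and -0.17). The *Pdk1* call with the label normal was lost without normal Veh replicate 1 (-0.66, adjusted p = 0.050) or normal CC replicate 2 (-0.57, adjusted p = 0.0555).

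**Figure D1:**
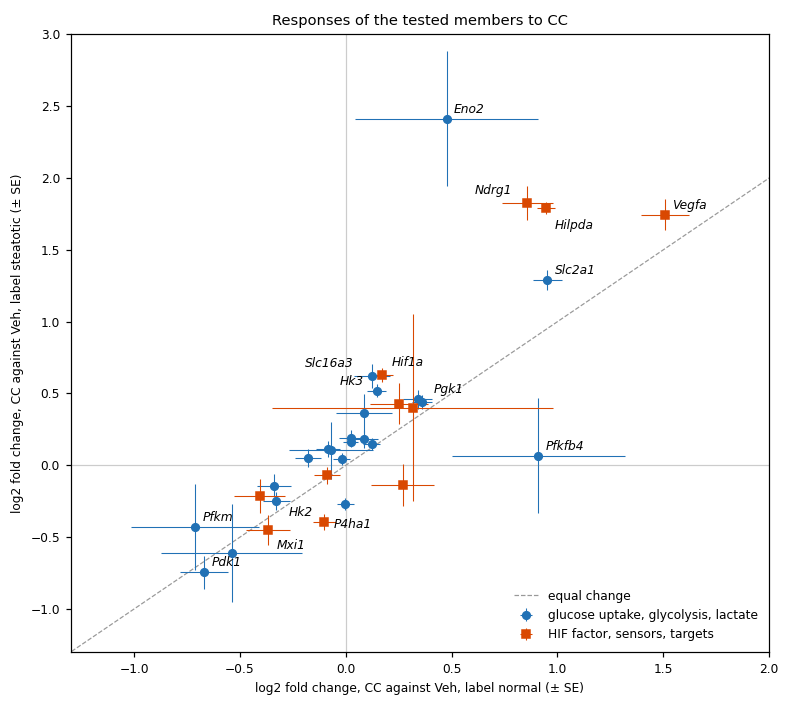
Log2 fold change of each of the 33 tested members between CC and Veh with the label normal (horizontal axis) and with the label steatotic (vertical axis), with standard errors as bars, glycolysis genes as circles and oxygen-response genes as squares. Vegfa, Ndrg1, Hilpda and Slc2a1 lie at the upper right, Pdk1 at the lower left, and the wide bars of Eno2 and of the unlabelled Egln3 square go with their low counts.

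To show what lies before the starts of the members that moved with CC at both labels, the 250 bases upstream of the outermost start in RefSeq are given for 7 of these 8 genes, 5′ to 3′ on the gene's strand, with build GRCm38.p6. The promoter table holds no entry for *Ndrg1*. Capitals mark ACGTG and GCGTG, the cores of HIF binding motifs, and their reverse complements CACGT and CACGC, and neighbouring matches may overlap.
Slc2a1, chr4:119108495-119108744, plus strand: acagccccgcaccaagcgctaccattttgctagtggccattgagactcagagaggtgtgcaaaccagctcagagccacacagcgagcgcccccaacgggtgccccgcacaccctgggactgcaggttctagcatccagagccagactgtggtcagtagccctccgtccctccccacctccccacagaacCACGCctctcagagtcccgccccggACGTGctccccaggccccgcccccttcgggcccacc
Pgk1, chrX:106186850-106187099, plus strand: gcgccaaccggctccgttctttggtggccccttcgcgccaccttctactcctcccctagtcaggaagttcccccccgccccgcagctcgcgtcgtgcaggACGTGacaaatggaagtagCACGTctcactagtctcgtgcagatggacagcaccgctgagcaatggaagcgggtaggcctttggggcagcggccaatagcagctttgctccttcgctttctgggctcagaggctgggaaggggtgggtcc
Pgam1, chr19:41911621-41911870, plus strand: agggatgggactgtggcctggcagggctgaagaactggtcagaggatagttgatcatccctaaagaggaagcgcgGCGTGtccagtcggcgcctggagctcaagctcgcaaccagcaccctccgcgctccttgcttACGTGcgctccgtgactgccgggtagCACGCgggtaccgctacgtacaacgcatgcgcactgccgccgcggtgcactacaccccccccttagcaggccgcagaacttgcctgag
Vegfa, chr17:46032378-46032627, minus strand: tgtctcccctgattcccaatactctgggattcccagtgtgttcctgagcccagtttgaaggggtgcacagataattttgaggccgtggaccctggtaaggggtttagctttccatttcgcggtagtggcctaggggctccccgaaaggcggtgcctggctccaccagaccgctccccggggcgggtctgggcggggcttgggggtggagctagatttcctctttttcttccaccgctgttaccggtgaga
Hilpda, chr6:29272238-29272487, plus strand: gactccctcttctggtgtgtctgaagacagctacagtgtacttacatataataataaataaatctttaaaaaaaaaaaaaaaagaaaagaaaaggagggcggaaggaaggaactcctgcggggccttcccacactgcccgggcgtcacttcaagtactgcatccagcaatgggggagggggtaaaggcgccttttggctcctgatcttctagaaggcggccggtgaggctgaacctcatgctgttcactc
Hk2, chr6:82774455-82774704, minus strand: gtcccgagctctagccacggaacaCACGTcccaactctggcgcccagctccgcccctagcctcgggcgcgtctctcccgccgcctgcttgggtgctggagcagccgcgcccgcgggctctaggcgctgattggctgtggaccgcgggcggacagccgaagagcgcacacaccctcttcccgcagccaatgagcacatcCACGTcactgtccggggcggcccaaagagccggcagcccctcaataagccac
Pdk1, chr2:71872974-71873223, plus strand: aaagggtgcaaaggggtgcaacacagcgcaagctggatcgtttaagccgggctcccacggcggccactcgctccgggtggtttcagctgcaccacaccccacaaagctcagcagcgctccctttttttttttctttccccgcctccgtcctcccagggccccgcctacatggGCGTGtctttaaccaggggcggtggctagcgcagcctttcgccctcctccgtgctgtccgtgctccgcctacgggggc
*Slc2a1* held ACGTG 36 bases before its start and CACGC at 61 bases, *Pgk1* held ACGTG and CACGT, and *Pgam1* held ACGTG with GCGTG and CACGC. The *Hk2* window, of a gene that was lower with CC, held CACGT at 2 places, and that of *Pdk1*, also lower, held GCGTG. The windows of *Vegfa* and *Hilpda* shown here held no match, which says only that these letters are not in these 250 bases. Both genes have a second RefSeq start, whose window held CACGT and GCGTG for *Vegfa* (211 and 218 bases before that start) and ACGTG and GCGTG for *Hilpda* (43 bases, and 111 and 8 bases, before it). The second window of *Pdk1* held none. Over all RefSeq starts, ACGTG or CACGT was found for 21 of the 33 members with an entry (63.6%), for 10 of 11 genes of the oxygen response and for 11 of 22 genes of glycolysis, beside 24.8% of 10458 tested genes and 18.5% of 27025 genes with an entry. GCGTG or CACGC was found for 21 of 33 members (63.6%), 48.7% of the tested genes and 30.9% of all genes. The windows were richer in G and C in the members (median 61.9%) than over the tested genes (59.4%) or all genes (52.4%). The members were listed in part as known HIF targets, so these shares are not independent of that choice and were not tested. A match is a description of the sequence and not a binding site.

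Among the hexokinases, *Hk3*, the form of myeloid cells, had the most counts per exon length in every library. It had 516 CPM in each normal Veh library, 533 and 579 in normal CC, 404 and 398 in steatotic Veh and 564 and 572 in steatotic CC. Both steatotic Veh libraries lay below all others. CC raised it with the label steatotic (log2 0.52 ± 0.04, adjusted p = 0.000128), with a change of 0.15 ± 0.04 (adjusted p = 0.0761) with the label normal, and at Veh it was lower with the label steatotic by 0.32 ± 0.04 (adjusted p = 0.00117). Per exon length, *Hk3* made up 86.2% of hexokinase counts in each normal Veh library, 88.6% and 89.4% in normal CC, 81.6% and 81.3% in steatotic Veh and 87.5% and 86.8% in steatotic CC. The share of *Hk2* was 8.77% and 8.53%, then 6.79% and 6.10%, 11.5% and 12.1%, and 7.04% and 7.77% in the same order. *Hk1*, the housekeeping hexokinase, lay between 63.9 and 82.7 CPM and was higher with the label steatotic with CC (0.35 ± 0.06, adjusted p = 0.00286). *Hk2* was higher with the label steatotic at Veh (0.21 ± 0.06, adjusted p = 0.0390, lost under 9 of 18 alternatives) and with CC (0.29 ± 0.06, adjusted p = 0.0115). The latter call was lost without normal CC replicate 2 at 0.27 (adjusted p = 0.0664) and without steatotic CC replicate 2 at 0.20 (adjusted p = 0.0513).

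*Gpi1*, glucose-6-phosphate isomerase, had 279 and 272 CPM in normal Veh, 266 and 271 in normal CC, 321 and 342 in steatotic Veh and 272 and 271 in steatotic CC. The steatotic Veh libraries stood above all others (0.31 ± 0.04, adjusted p = 0.000979), and CC lowered it there by 0.27 ± 0.04 (adjusted p = 0.00255). Of the phosphofructokinase subunits, *Pfkl* fell with CC with the label normal, from 25.5 and 23.8 CPM to 19.7 and 18.4 (-0.34 ± 0.08, adjusted p = 0.0335), a call that was lost under 8 of 18 alternatives. *Pfkp* (56.5 to 68.1 CPM) and *Pfkm* (1.37 to 3.14 CPM) were called in no comparison. With CC, *Pfkl* was higher with the label steatotic (0.32 ± 0.08, adjusted p = 0.0194), a call lost under 4 of 18 alternatives, among them without normal CC replicate 2 (0.28, adjusted p = 0.101) and without steatotic CC replicate 1 (0.26, adjusted p = 0.0977). Per length, *Pfkp* made up 51.7% and 51.0% of phosphofructokinase counts in normal Veh, 59.9% and 59.3% in normal CC, 48.6% and 49.0% in steatotic Veh and 54.5% and 55.5% in steatotic CC, above *Pfkl* in each library. *Pfkfb3* and *Pfkfb4*, whose products set the level of fructose-2,6-bisphosphate, an activator of phosphofructokinase, spread more between libraries. *Pfkfb3* was higher with the label steatotic with CC (100 and 83.9 against 66.6 and 66.1 CPM, 0.50 ± 0.13, adjusted p = 0.0362), a call lost under 7 of 18 alternatives. *Pfkfb4* had 15.3 and 14.5 CPM in normal Veh, 19.9 and 34.7 in normal CC, 27.4 and 42.5 in steatotic Veh and 45.2 and 27.0 in steatotic CC, so the libraries of 3 groups lay 1.55 to 1.75-fold apart and no comparison was called.

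*Aldoa*, the main aldolase, had 976 and 962 CPM in normal Veh, 978 and 943 in normal CC, 634 and 663 in steatotic Veh and 723 and 709 in steatotic CC. All 4 steatotic libraries lay below all 4 normal ones, by 0.54 ± 0.04 at Veh (adjusted p = 3.32e-05) and 0.40 ± 0.04 with CC (adjusted p = 0.000176) on the log2 scale. CC raised it with the label steatotic by 0.16 ± 0.04 (adjusted p = 0.0166), which fell to 0.12 (adjusted p = 0.118) without steatotic Veh replicate 1 and to 0.14 (adjusted p = 0.0757) without steatotic CC replicate 1. *Aldoc* stayed between 0.549 and 2.0 CPM and gave at most 0.182% of aldolase counts per length in every library. *Pkm*, pyruvate kinase, was the member with the highest level per exon length in all 4 groups. It had 2619 and 2630 CPM in normal Veh, 2739 and 2829 in normal CC, 2199 and 2202 in steatotic Veh and 2312 and 2515 in steatotic CC. It was lower with the label steatotic at Veh (-0.21 ± 0.04, adjusted p = 0.00727) and with CC (-0.18 ± 0.04, adjusted p = 0.0150; -0.16 without normal CC replicate 2, adjusted p = 0.0906). The deposited table does not tell its splice forms apart. *Pkm* and *Eno1* were also called higher with CC with the label steatotic, by 0.15 ± 0.04 (adjusted p = 0.0375) and 0.19 ± 0.06 (adjusted p = 0.0477), and lost that call under 11 and 12 of 18 alternatives (*Pkm* at 0.09 without steatotic CC replicate 2). *Eno1*, the main enolase, had 361 and 330 CPM in normal Veh, 353 and 332 in normal CC, 296 and 287 in steatotic Veh and 337 and 320 in steatotic CC.

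*Eno2*, the enolase of neurons, had 1.02 and 1.42 CPM in normal Veh, 1.59 and 1.72 in normal CC, 0.190 and 0.516 in steatotic Veh and 2.24 and 1.52 in steatotic CC. The steatotic Veh libraries, with 13 and 38 counts, lay below all others, and those of steatotic CC, with 147 and 113 counts, overlapped normal CC. It was lower with the label steatotic at Veh (-1.73 ± 0.47, adjusted p = 0.0269) and rose with CC with that label (2.41 ± 0.47, adjusted p = 0.00838). The Veh call was lost without normal Veh replicate 2 (-1.47, adjusted p = 0.111) and without steatotic Veh replicate 1 (-1.19, adjusted p = 0.0897). *Eno2* gave at most 0.755% of enolase counts per length. It lies on chromosome 6 from 124760053 to 124769673, on the same chromosome as *Tpi1* (124810586 to 124814296) and *Gapdh* (125161715 to 125166467). *Tpi1*, triose-phosphate isomerase, with 124 to 150 CPM, was called in no comparison.

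At the end of the pathway, *Ldha*, lactate dehydrogenase A, had 433 to 488 CPM over the 8 libraries and was called in no comparison, with log2 differences between -0.09 and 0.06. *Slc16a3*, the lactate exporter, had 16.2 and 15.3 CPM in normal Veh, 16.8 and 16.7 in normal CC, 17.9 and 16.0 in steatotic Veh and 25.2 and 26.5 in steatotic CC. The steatotic CC libraries alone stood apart. It rose with CC with the label steatotic (0.62 ± 0.08, adjusted p = 0.00144), with 0.12 ± 0.08 (adjusted p = 0.423) with the label normal, and the difference between these responses was 0.50 ± 0.12 (adjusted p = 0.0790). The summed level of the 22 glycolysis genes was 6353 and 6271 CPM in normal Veh, 6555 and 6660 in normal CC, 5247 and 5317 in steatotic Veh and 5850 and 6017 in steatotic CC, and *Pkm* gave 41.5% of it over all libraries. With near-identical copies added (as described for *Gapdh*) the sum was 7892 and 7745, 8252 and 8378, 6339 and 6388, and 7197 and 7268 CPM in the same order, and *Pkm* with its copies gave 34.2%.

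**Figure D2:**
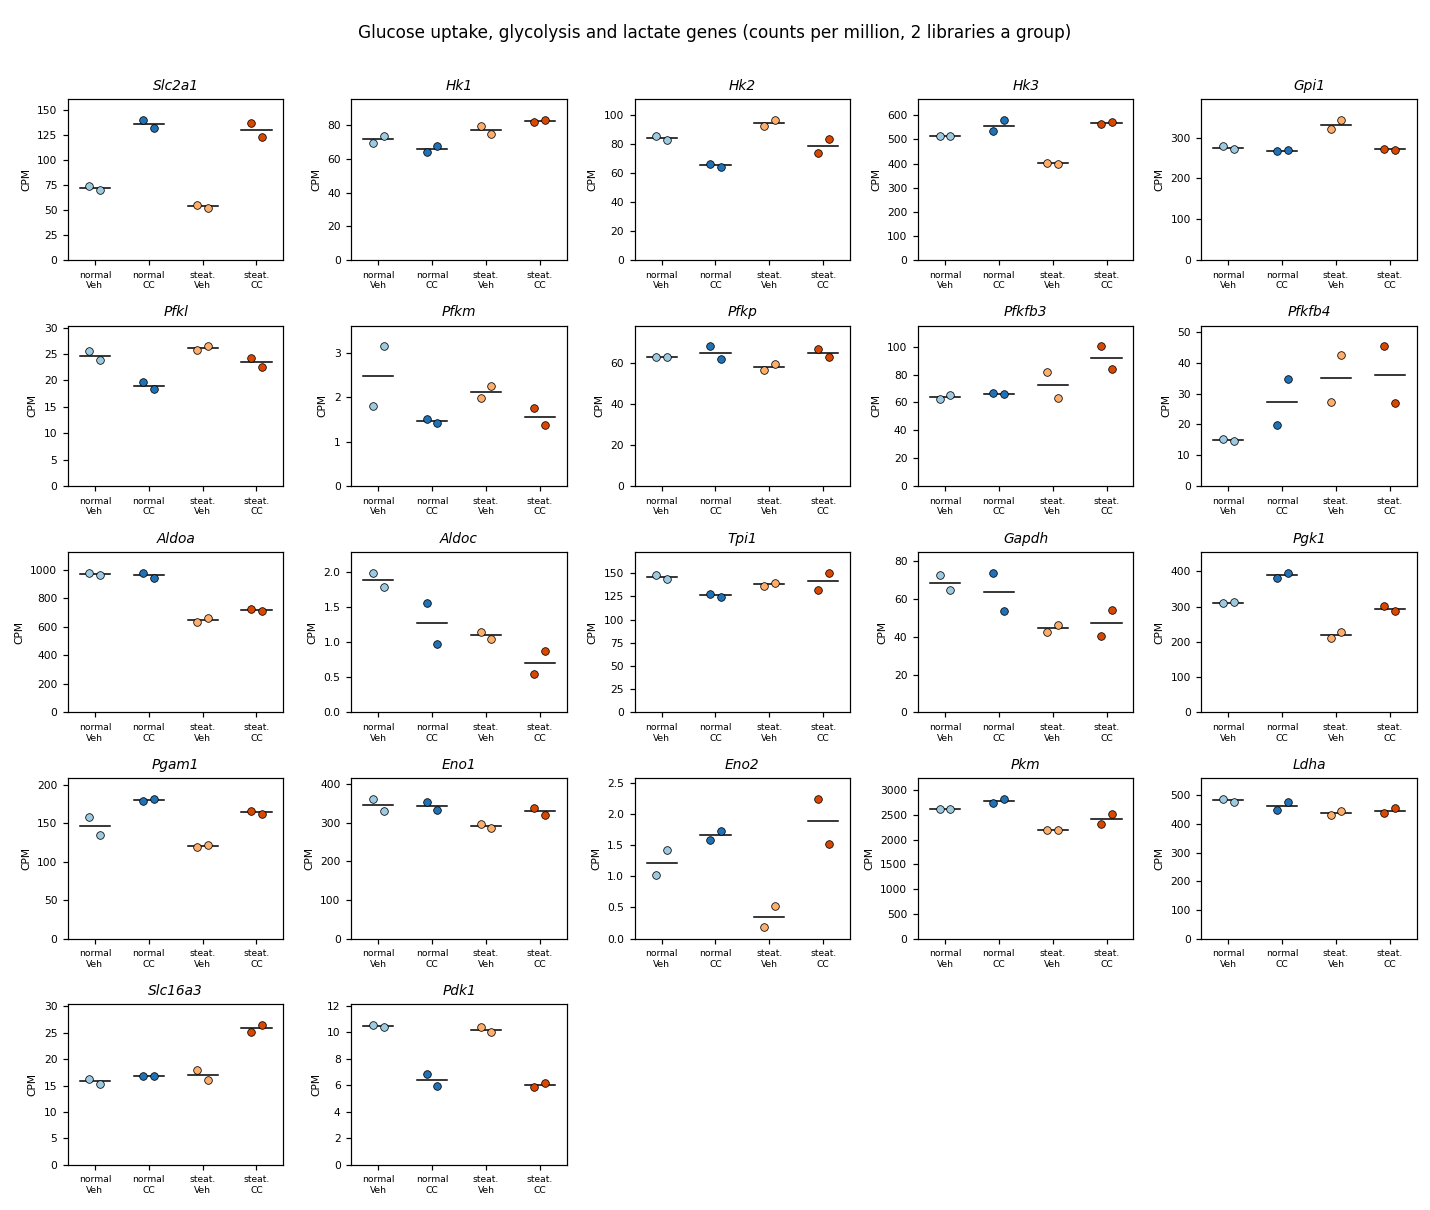
CPM of the 22 genes of glucose uptake, glycolysis and lactate formation in each library (points) with the mean of each group (lines), every axis starting at 0. Slc2a1 and Pgk1 were higher with CC at both labels, Pdk1 was lower with CC at both, Aldoa was lower in the 4 steatotic libraries, and Pfkfb4 spread within groups.

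*Gapdh* was listed at 72.5 and 64.7 CPM in normal Veh, 73.9 and 53.6 in normal CC, 42.5 and 46.3 in steatotic Veh and 40.4 and 54.1 in steatotic CC, and no comparison was called. These values are uncertain, because the genome holds 194 near-identical copies of its transcript, mostly processed pseudogenes, and 134 of them had counts. The copies held 664102 counts over all libraries and the gene 30152, so only 4.34% of the joint counts (3.31% to 5.09% in single libraries) were listed at *Gapdh*, and 9 copies each had more counts than the gene itself. With the copies added, the level was 1424 and 1378 CPM in normal Veh, 1596 and 1599 in normal CC, 1001 and 984 in steatotic Veh and 1221 and 1183 in steatotic CC. On that joint level the 4 groups did not overlap, and CC was higher at both labels (0.23 ± 0.03, adjusted p = 0.00424, and 0.29 ± 0.03, adjusted p = 0.000564). The label steatotic was lower at Veh (-0.45 ± 0.03, adjusted p = 4.52e-05) and with CC (-0.39 ± 0.03, adjusted p = 0.000123). This addition of copies was chosen after the values were seen. For *Eno1* 83.0% of the joint counts were at the gene, for *Pgam1* 89.8%, for *Pgk1* 91.6% and for *Pkm* 98.5%. With copies added the calls of *Pgk1*, *Pgam1* and *Pkm* were kept, and those of *Eno1* were lost (0.18, adjusted p = 0.247, for CC with the label steatotic and -0.25, adjusted p = 0.0893, for the labels at Veh).

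**Figure D3:**
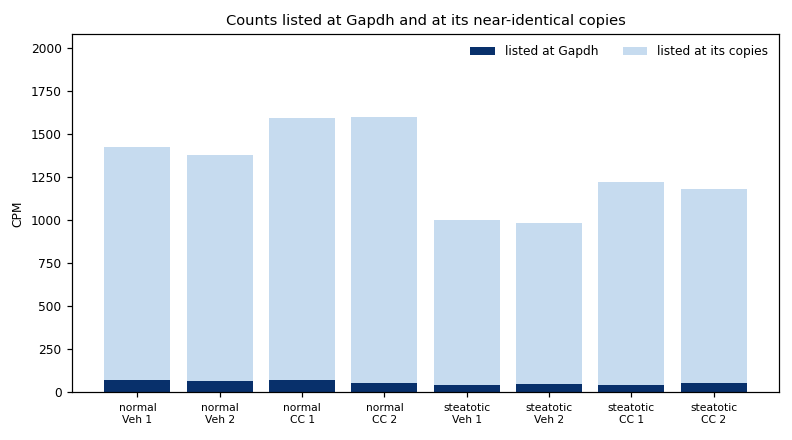
CPM listed at Gapdh (dark) and at its near-identical copies (light, stacked) in each of the 8 libraries. The part listed at the gene is 3.31% to 5.09% of each bar, and the joint level is highest in the normal CC libraries and lowest in the steatotic Veh libraries.

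*Hif1a* (ENSMUSG00000021109.13, chromosome 12 from 73901375 to 73947530) had 153 and 166 CPM in normal Veh, 177 and 173 in normal CC, 216 and 208 in steatotic Veh and 317 and 331 in steatotic CC. The groups did not overlap, and the steatotic CC libraries were the highest. CC raised its RNA with the label steatotic by 0.63 ± 0.05 (adjusted p = 0.000102), with 0.17 ± 0.05 (adjusted p = 0.0721) with the label normal. It was higher with the label steatotic at Veh (0.46 ± 0.05, adjusted p = 0.000375) and with CC (0.91 ± 0.05, adjusted p = 1.28e-05). HIF-1 is controlled mainly through the stability of its protein, which was not measured here. *Egln1*, the main oxygen sensor, had 34.9 and 33.7 CPM in normal Veh, 31.5 and 31.4 in normal CC, 27.8 and 27.0 in steatotic Veh and 25.6 and 26.0 in steatotic CC. It was lower with the label steatotic at Veh (-0.28 ± 0.06, adjusted p = 0.0117) and with CC (-0.26 ± 0.06, adjusted p = 0.0171). The latter call was lost without any 1 of its 4 libraries (-0.27 to -0.25, adjusted p = 0.0609 to 0.0733), and the former without normal Veh replicate 1 (-0.25, adjusted p = 0.0635) or steatotic Veh replicate 2 (-0.26, adjusted p = 0.0691).

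Other HIF targets went different ways. *P4ha2*, a subunit of the prolyl hydroxylase that matures collagen, had 5.26 and 5.42 CPM in normal Veh, 6.26 and 6.12 in normal CC, 1.89 in each steatotic Veh library and 2.41 and 2.62 in steatotic CC. All steatotic libraries lay below all normal ones (-1.45 ± 0.14, adjusted p = 0.000212, at Veh and -1.27 ± 0.14, adjusted p = 0.000473, with CC). Its partner isoform *P4ha1* gave at least 97.4% of the counts of the pair per length in every library and fell with CC with the label steatotic, from 192 and 187 CPM to 141 and 144 (-0.39 ± 0.05, adjusted p = 0.00150). At Veh *P4ha1* was called higher with the label steatotic (0.18 ± 0.05, adjusted p = 0.0394), a call lost under 10 of 18 alternatives (0.12 without normal Veh replicate 2). *Mxi1*, a repressor that opposes MYC, had 32.3 and 36.4 CPM in normal Veh, 24.1 and 27.8 in normal CC, 21.8 and 24.6 in steatotic Veh and 16.6 and 16.9 in steatotic CC. It was lower with the label steatotic at Veh (-0.52 ± 0.10, adjusted p = 0.00706) and with CC (-0.61 ± 0.10, adjusted p = 0.00407), and lower with CC with the label steatotic (-0.45 ± 0.10, adjusted p = 0.0176). That last call was lost without steatotic Veh replicate 2 (-0.36, adjusted p = 0.103), steatotic CC replicate 1 (-0.44, adjusted p = 0.0816) or steatotic CC replicate 2 (-0.46, adjusted p = 0.0666).

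*Adm*, the vasodilator adrenomedullin, had 5.85 and 5.15 CPM in normal Veh, 6.73 and 6.19 in normal CC, 8.49 and 9.16 in steatotic Veh and 8.77 and 7.08 in steatotic CC, and was called only between the labels at Veh (0.73 ± 0.15, adjusted p = 0.00760). *Bnip3*, a receptor for the removal of mitochondria, had 12.9 and 11.1 CPM in normal Veh, 8.94 and 8.71 in normal CC, 14.4 and 12.8 in steatotic Veh and 11 and 12.2 in steatotic CC. It was called only between the labels with CC (0.42 ± 0.12, adjusted p = 0.0350), and without any 1 of these 4 libraries that call was lost (0.34 to 0.49, adjusted p = 0.0564 to 0.154). The summed level of the 12 oxygen-response genes was 533 and 535 CPM in normal Veh, 617 and 620 in normal CC, 565 and 550 in steatotic Veh and 804 and 811 in steatotic CC.

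**Figure D4:**
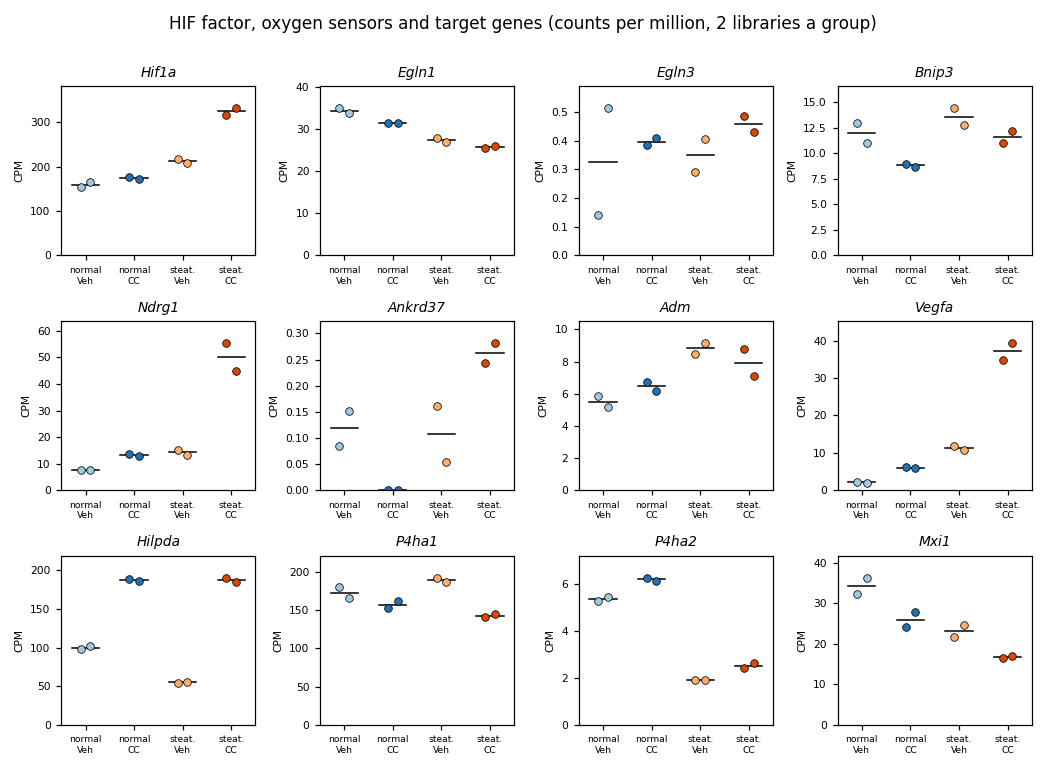
CPM of the 12 genes of the oxygen response in each library (points) with the mean of each group (lines), every axis starting at 0. Hif1a, Ndrg1 and Vegfa were highest in the steatotic CC libraries, Hilpda was high in both CC groups, P4ha2 was low in the steatotic libraries, and Ankrd37 and Egln3 were near the floor of the measurement.

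The label steatotic was compared with the label normal at Veh to ask how the macrophages stood after 24 h of culture without crystals. At Veh, 7 of 33 members were higher and 12 lower, where 16.4% of all tested genes were higher and 14.3% lower. Of the glycolysis genes, 2 were higher (*Hk2*, *Gpi1*) and 8 lower (*Slc2a1*, *Hk3*, *Aldoa*, *Pgk1*, *Pgam1*, *Eno1*, *Eno2*, *Pkm*) of 22, with a median log2 difference of -0.13. Of the 11 tested oxygen-response genes, 5 were higher (*Hif1a*, *Ndrg1*, *Adm*, *Vegfa*, *P4ha1*) and 4 lower (*Egln1*, *Hilpda*, *P4ha2*, *Mxi1*), with a median of 0.18. The median over all tested genes was -0.01. *Pgam1* (-0.23 ± 0.07, adjusted p = 0.0393) and *Eno1* (-0.20 ± 0.06, adjusted p = 0.0310) lost this call under 9 and 5 of 18 alternatives, at -0.11 and -0.13 without normal Veh replicate 1. *Vegfa* differed most among the members (2.42 ± 0.11, adjusted p = 5.35e-06), and the normal and steatotic libraries did not overlap. With CC, 9 members were higher and 6 lower with the label steatotic, against 15.9% and 12.9% of all tested genes. The higher ones were *Hk1*, *Hk2*, *Pfkl*, *Pfkfb3*, *Slc16a3*, *Hif1a*, *Bnip3*, *Ndrg1* and *Vegfa*, and the lower ones *Aldoa*, *Pgk1*, *Pkm*, *Egln1*, *P4ha2* and *Mxi1*. *Vegfa* (2.66 ± 0.11, adjusted p = 3.29e-06) and *Ndrg1* (1.94 ± 0.12, adjusted p = 2.36e-05) had the largest of these differences. Without normal CC replicate 2 the numbers were 5 higher and 4 lower. The comparisons between the labels share their libraries with the comparisons of CC and Veh, so these values are not independent of each other.

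**Figure D5:**
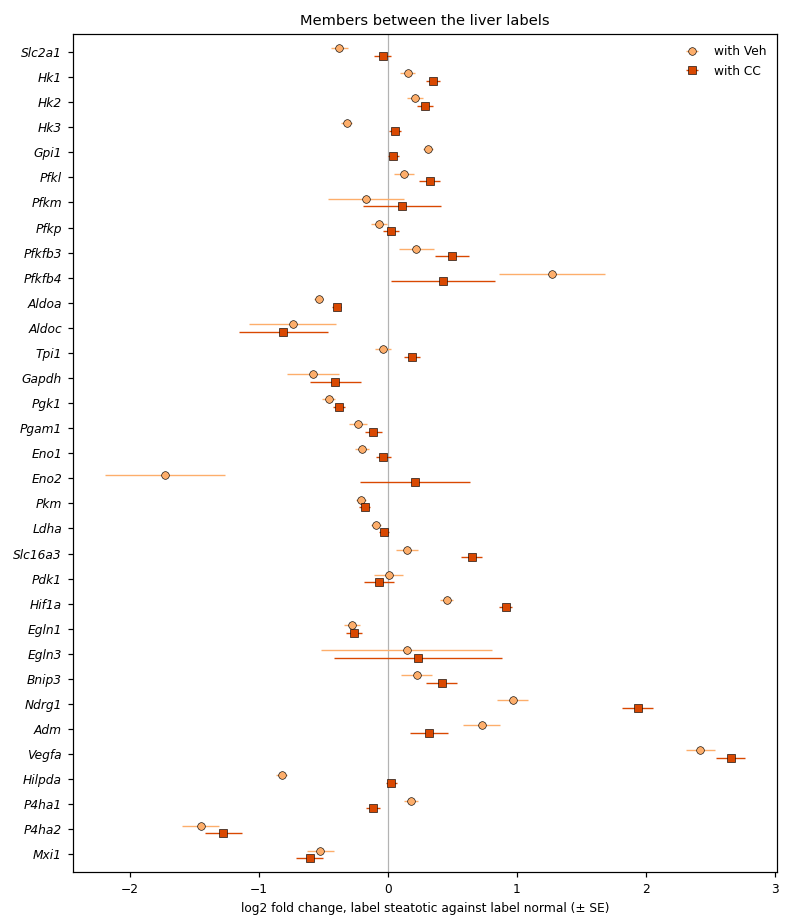
Log2 fold change of each tested member between the labels steatotic and normal with Veh (circles) and with CC (squares), with standard errors as bars. Slc2a1, Hk3, Hilpda and Eno2 lie below 0 with Veh and near 0 with CC, Aldoa, Pgk1, P4ha2 and Mxi1 lie below 0 with both, and Vegfa, Ndrg1 and Hif1a lie above 0 with both.

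The difference between the CC responses was tested directly, and 4 of 33 members responded more strongly with the label steatotic and 0 less strongly, where 1.95% of all tested genes differed in the first direction and 1.27% in the second. The 4 were *Hilpda* (difference of log2 fold changes 0.85 ± 0.06, adjusted p = 0.00116), *Hif1a* (0.46 ± 0.07, adjusted p = 0.0160), *Hk3* (0.37 ± 0.06, adjusted p = 0.0205) and *Ndrg1* (0.97 ± 0.17, adjusted p = 0.0253). The count of 4 was 2 without any 1 of the 4 normal libraries and 1 without steatotic Veh replicate 2. *Hilpda* and *Hk3* were lower and *Hif1a* and *Ndrg1* higher with the label steatotic at Veh. At an unadjusted p under 0.05 edgeR had 10 members in the first direction and 2 in the second (7.94% and 6.26% of all tested genes), and DESeq2 called 4 and 1 (2.88% and 2.06% of the genes it gave an adjusted p). The 1 was *Gpi1* (-0.27 ± 0.06 in edgeR, adjusted p = 0.0567). *Eno2* differed by 1.94 ± 0.63 (adjusted p = 0.201) and *Slc2a1* by 0.34 ± 0.10 (adjusted p = 0.135). The *Hif1a* call was lost without normal CC replicate 1 (0.48, adjusted p = 0.0508), normal CC replicate 2 (0.44, adjusted p = 0.0656) or steatotic Veh replicate 2 (0.43, adjusted p = 0.0666). The *Hk3* call was lost without either normal Veh library, either steatotic Veh library or steatotic CC replicate 2 (0.36 to 0.38, adjusted p = 0.0544 to 0.0782). The *Ndrg1* call was lost without either normal Veh library, either normal CC library, steatotic Veh replicate 2 or steatotic CC replicate 1 (0.80 to 1.01, adjusted p = 0.0508 to 0.0868).

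The neighbours of these pathways were examined by lists of further genes. Of 29 tested further HIF targets, 4 rose and 3 fell with CC with the label normal and 6 rose and 5 fell with the label steatotic, and 2 and 1 differed in their responses. Of all tested genes, 6.27% rose and 5.54% fell with the label normal, 12.0% and 10.9% with the label steatotic, and 1.95% and 1.27% differed. Between the labels 4 of the 29 were higher and 7 lower at Veh (16.4% and 14.3% of all tested genes) and 2 higher and 7 lower with CC (15.9% and 12.9%). *Bhlhe40*, a HIF-induced repressor of transcription, had 132 ± 1.11 CPM (SD, n = 2) in normal Veh, 219 ± 5.86 in normal CC, 41.4 ± 1.87 in steatotic Veh and 198 ± 20.2 in steatotic CC. Its response to CC was larger with the label steatotic (0.77 ± 0.07 against 2.28 ± 0.07, difference 1.5 ± 0.10, adjusted p = 0.00110). At Veh it was lower there (-1.62 ± 0.07, adjusted p = 4.48e-06). *Hmox1*, heme oxygenase, a target shared with NRF2, rose with CC from 3788 ± 5.05 to 5435 ± 48.1 CPM with the label normal and from 2325 ± 78.1 to 2967 ± 118 CPM with the label steatotic. Of 14 HIF subunits and regulators, 0 were called with CC at either label by edgeR or DESeq2. Of these 14, 0 with the label normal and 1 with the label steatotic had an unadjusted p under 0.05 in edgeR. The share of all tested genes at that unadjusted threshold was not computed for CC against Veh, so these 2 counts have no comparison. In the label comparisons 2 were higher and 3 lower with the label steatotic at Veh and 4 higher and 3 lower with CC, beside the same shares of all tested genes, 16.4% and 14.3% at Veh and 15.9% and 12.9% with CC. *Epas1*, which encodes HIF-2α, was lower there at Veh (23.3 ± 0.783 against 9.29 ± 0.935 CPM, -1.28 ± 0.12, adjusted p = 0.000166), and *Ep300*, a coactivator of HIF, higher (0.37 ± 0.06, adjusted p = 0.00179).

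Of 17 tested further genes of glucose transport and glycolysis, 1 rose and 1 fell with CC with the label normal and 1 rose and 3 fell with the label steatotic, where 6.27% and 5.54%, and 12.0% and 10.9%, of all tested genes did so. *Slc2a6*, a lysosomal hexose transporter of macrophages, had 11.9 ± 1.59 CPM in normal Veh, 13.8 ± 1.89 in normal CC, 12.0 ± 0.279 in steatotic Veh and 28.1 ± 4.43 in steatotic CC (CC with the label steatotic 1.25 ± 0.15, adjusted p = 0.000828). *Adpgk*, an ADP-dependent glucokinase, fell with CC with that label (-0.47 ± 0.06, adjusted p = 0.000726). Of 12 genes of pyruvate entry into mitochondria and of pyruvate dehydrogenase and its regulators, 1 fell with CC with the label normal. With the label steatotic 2 rose and 2 fell. The shares of all tested genes were those just given. Between the labels 4 of these 12 were lower at Veh and 2 with CC (14.3% and 12.9% of all tested genes), with a median log2 difference of -0.17 at Veh beside -0.01 over all tested genes. The 2 risers with the label steatotic were *Pdhb*, a subunit of pyruvate dehydrogenase (0.25 ± 0.05, adjusted p = 0.00840), and *Pdp1*, the phosphatase that reverses the action of *Pdk1* (0.44 ± 0.06, adjusted p = 0.00169). *Pdha1*, a further subunit of that dehydrogenase, went the other way, from 78.6 and 75.1 CPM in steatotic Veh to 66.6 and 66.8 in steatotic CC. Of 8 genes of the pentose phosphate pathway, 1 was higher and 4 lower with the label steatotic at Veh (16.4% and 14.3% of all tested genes), among them *Taldo1*, transaldolase (896 ± 14.9 against 499 ± 2.43 CPM, -0.80 ± 0.05, adjusted p = 3.19e-05), and *Pgd*, 6-phosphogluconate dehydrogenase (-0.63 ± 0.04, adjusted p = 2.26e-05). *Pgd* rose with CC at both labels (0.33 ± 0.04, adjusted p = 0.00183, and 0.38 ± 0.04, adjusted p = 0.000365). Of 12 tested genes of glycogen and gluconeogenesis, 5 were lower and 0 higher with the label steatotic at Veh, in edgeR and in DESeq2. Over all tested genes 14.3% were lower and 16.4% higher in edgeR, and 13.6% and 16.5% in DESeq2. At an unadjusted p under 0.05 in edgeR also 0 were higher, and the share of all tested genes at that threshold was not computed. *Gbe1*, the glycogen branching enzyme, was lower with the label steatotic at Veh (41.2 ± 1.58 against 13.7 ± 1.16 CPM, -1.54 ± 0.09, adjusted p = 1.85e-05). It rose with CC at both labels (0.55 ± 0.09, adjusted p = 0.00761, and 0.75 ± 0.09, adjusted p = 0.000897). *Pygl*, a glycogen phosphorylase, fell with CC at both (-0.70 ± 0.08, adjusted p = 0.00149, and -1.22 ± 0.08, adjusted p = 4.59e-05).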

How the data were processed

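Poly(A) RNA of 8 libraries of hepatic macrophages was analysed, 2 for each of 4 groups, with groups and replicate numbers taken from the labels. Read trimming (fastp), alignment to mm10 (HISAT2) and gene quantification (StringTie) were done by the authors, with versions not given in the sources used here. The authors deposited estimated counts (expected counts) as whole numbers in 1 table, not normalized and with no libraries pooled, and 0 of its columns had no sample. From 35.0% to 36.5% of the values from 1 to 20 were multiples of 4, so 1 fragment may stand for several counts. Counting by strand is not stated.

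A gene was tested where any library reached 0.5 CPM. The quasi-likelihood test of edgeR 4.0.16 (R 4.3.3), with TMM factors of 0.981 to 1.03 and robust dispersions, was run in 1 model holding all 4 groups. P-values were adjusted by Benjamini-Hochberg over the 15202 tested genes in each of 5 contrasts, with a threshold of 0.05. Levels are CPM of library totals, and levels per length divide by the exon bases of GENCODE release M21. These bases join all listed exons of a gene and can exceed the length of the transcript made. Shares within enzyme families and orders of level per length depend on them. Near-identical copies were pseudogenes that blast 2.17.0 matched at 90% identity or more over at least 50% of the copy, or coding genes at 99%.

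All 34 members are described. Of each further pathway list at most the 2 tested genes of lowest adjusted p in any contrast are named with values, with *Pdha1* added. The named cell type markers were not chosen by that rule. The members and all lists were chosen with earlier results of these data known. Alternatives were DESeq2 1.42.0, its size factors, library size only, other filters, a replicate block, only the 4 libraries that a comparison sets side by side, glmTreat, each library left out and, added after the data were seen, members joined with their copies and counts divided by 4. A fit without 1 library leaves its group with 1 library, which is assumed to vary like the others. Figures were drawn with matplotlib 3.10.9.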

Additional observations from a re-analysis of the deposited data

Results flagged for a closer look

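The tested differences between the CC responses with the labels steatotic and normal set 4 members apart. The difference of log2 fold changes was 0.85 for *Hilpda*, 0.46 for *Hif1a*, 0.37 for *Hk3* and 0.97 for *Ndrg1*, each toward a larger rise with the label steatotic. *Hilpda* and *Hk3* were lower with that label at Veh, *Hif1a* and *Ndrg1* higher. Over the alternatives that give this difference (all but the fit to 4 libraries alone) it ranged from 0.81 to 0.88 for *Hilpda*, 0.39 to 0.51 for *Hif1a*, 0.32 to 0.43 for *Hk3* and 0.80 to 1.12 for *Ndrg1*, and the call was lost in 1, 4, 6 and 7 of them, respectively. The cause of the differences was not tested.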

How the results depend on the processing

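The deviations of same-numbered libraries from their group means correlated at -0.00 to 0.06 over 15202 genes. These values showed no pairing by replicate number over the genes as a set. They cannot exclude one for single genes. With the replicate block, 5 members were higher and 12 lower between the labels at Veh (*Hk2* and *P4ha1* were no longer called), 6 higher and 4 lower with CC with the label normal, 13 and 5 with the label steatotic, 4 and 0 differed in their responses, and 9 were higher and 6 lower between the labels with CC. Against a fold change of 1.5 (glmTreat), these counts were 2 and 2, 3 and 0, 5 and 0, 0 and 0, and 3 and 1 in the same order, by construction fewer. The shares of all tested genes higher and lower in that order were 15.4% and 13.4%, 5.41% and 4.76%, 11.2% and 10.0%, 1.62% and 1.01%, and 14.9% and 11.9% with the replicate block, and 5.12% and 2.73%, 0.730% and 0.421%, 2.76% and 1.35%, 0.224% and 0.0724%, and 5.04% and 1.80% with glmTreat. In the difference between the CC responses, 1 member, *Gpi1*, was lower by DESeq2 and also 1 when genes with any count were tested. Without 1 library the counts higher and lower were 5 to 6 and 9 to 12 between the labels at Veh, 5 to 7 and 0 to 4 with CC with the label normal (0 lower without normal Veh replicate 1 or normal CC replicate 2), 11 to 12 and 3 to 5 with the label steatotic, 1 to 3 and 0 to 1 for the difference (1 higher without steatotic Veh replicate 2), and 5 to 9 and 4 to 6 between the labels with CC. The shares of all tested genes then ranged over 12.2% to 15.9% and 10.2% to 14.1%, 3.70% to 6.10% and 2.97% to 5.49%, 8.42% to 11.6% and 6.99% to 10.7%, 1.22% to 1.64% and 0.664% to 1.14%, and 12.0% to 15.6% and 8.41% to 12.6%. Of 65 called member values, 0 changed sign in any of 18 alternatives and 16 kept their call in all of them, 4 of them of *Vegfa*, 3 of *Ndrg1*, 3 of *Hilpda*, 2 of *Slc2a1*, 2 of *P4ha2*, 1 of *Eno2* and 1 of *Hif1a*. Of 100 uncalled values, 30 changed sign in some alternative. No scaling moved the median of all tested genes by over 0.1. Low counts limit *Ankrd37*, *Egln3* and *Eno2*, and reads shared with copies limit *Gapdh* and *Eno1*.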
